A study of Rattus norvegicus with 12 samples.

Results

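Arhgef19, Chodl, Meox2 and Pnoc are 4 rat genes of unrelated function that were picked because their liver RNA fell the most after dexamethasone on these arrays, outside the immune and metabolic gene families. All 5 probes that carry 1 of these names, of 41012 probes on the array, were collected, and 4 of the 5, 1 for each gene, passed the filter on dim probes. The 4 genes are compared here with 24298 measured genes, of which 12118 have a symbol. The values that chose them are the falls after dexamethasone themselves, so those falls are given below as a description with no test.

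The livers came from adrenalectomized Sprague-Dawley rats aged 8 to 10 weeks, a model that lacks its own adrenal corticosteroids in every group. Males received dexamethasone (1 mg/kg, intraperitoneal) or vehicle (400 µl of phosphate buffered saline), and females in diestrus 1 received the same dexamethasone dose or the same vehicle. Liver was taken 6 h later. Each of the 4 groups had 3 arrays, and each was hybridized with a pool of the RNA of 3 rats, out of 9 animals in a group, so the spread between arrays is a spread between pools and not between single rats. The question of the study is which liver genes respond to a glucocorticoid differently in females and males.

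Dexamethasone is a synthetic ligand of the glucocorticoid receptor, a transcription factor that raises some genes and lowers others in hepatocytes and in the immune, vascular and bile duct cells of the liver. Arhgef19 encodes a guanine nucleotide exchange factor that loads the small GTPase RhoA with GTP and acts in planar cell polarity Wnt signalling in frog embryos. Chodl encodes chondrolectin, a transmembrane protein with a C-type lectin domain that is known for its part in motor neuron growth in zebrafish. Meox2 is a homeobox transcription factor of mesoderm that restrains the division of vascular smooth muscle and endothelial cells and can activate Cdkn1a. Pnoc encodes prepronociceptin, the precursor from which the neuropeptide nociceptin is cut. Nociceptin acts on the opioid-like receptor Oprl1.

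The sequences of the 5 array probes follow, since every value below is the brightness of 1 of them and the Chodl probes disagree. They are written 5′ to 3′ as the scanner files give them, all in lower case with no base marked. RefSeq places Arhgef19 on chromosome 5, Chodl on chromosome 11, Meox2 on chromosome 6 and Pnoc on chromosome 15.
Arhgef19: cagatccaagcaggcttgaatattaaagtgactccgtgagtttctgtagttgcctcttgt
Chodl, brighter probe: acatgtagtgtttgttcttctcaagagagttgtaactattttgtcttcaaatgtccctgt
Chodl, dimmer probe: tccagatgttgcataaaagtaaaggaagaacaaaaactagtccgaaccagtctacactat
Meox2: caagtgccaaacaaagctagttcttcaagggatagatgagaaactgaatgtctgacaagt
Pnoc: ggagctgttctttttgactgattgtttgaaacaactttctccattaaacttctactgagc
The probes are 60 bases long, and their GC content ran between 35.0% for the brighter Chodl probe and 43.3% for Arhgef19. The 2 Chodl probes were designed on different transcript models.

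Levels are given as log2 intensity relative to the 75th percentile of the spots of the same array, so that 0 is a spot at that percentile. The share of spots well above background was 52.96% to 69.65% per array. The dimmest level that still did so differed between arrays, at log2 levels between -5.44 and -3.37. Some spots not well above background lay above that level of their array, so folds set against it are not strict minimums. The arrays lay on 5 slides, each scanned apart, and only slide 5 held all 4 groups, with replicate 3 of each. Its 4 arrays were dimmer (52.96% to 61.82% of spots above background) than the other 8 (62.72% to 69.65%), and values within or without that slide are given where they move a result.

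The mean level of all 4 genes was lower after dexamethasone than after vehicle in both sexes. In males no dexamethasone array reached a vehicle array for 4 of the 4 genes, where 18.5% of all measured genes were lower without overlap. In females this held for 3 of the 4, where 23.0% of all measured genes were lower without overlap, and Meox2 was the exception. These counts restate how the genes were picked. In the ranking of the 12118 genes with a symbol by the size of the fall, Chodl was 7th in males and 37th in females, Arhgef19 9th and 158th, Meox2 10th and 639th, and Pnoc 241st in males and 6th in females. The places of Chodl and Pnoc rest on dexamethasone signals that were not well above background, so they only describe the values used for the choice.

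**Figure D1:**
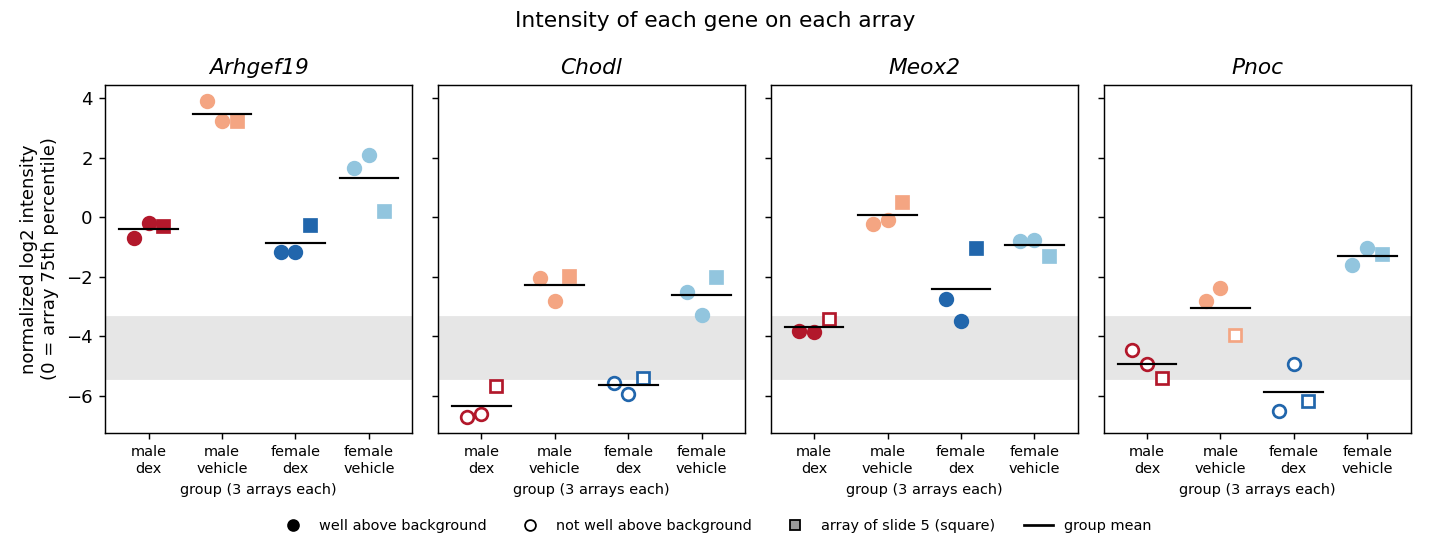
Normalized log2 intensity of each gene on every array, by group, with a bar at the group mean. Open points are not well above background, squares are the arrays of slide 5, and the grey band spans the dimmest detectable levels of the 12 arrays. The Chodl and Pnoc points after dexamethasone are all open, and the female Meox2 groups overlap through the slide 5 square at -1.04.

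Arhgef19, the guanine nucleotide exchange factor, stood above background on all 12 arrays. In males its log2 level was -0.69, -0.18 and -0.29 after dexamethasone, against 3.92, 3.24 and 3.24 after vehicle. The male groups lay far apart, and each was tight. In females it was -1.17, -1.18 and -0.25 after dexamethasone, against 1.66, 2.11 and 0.22 after vehicle. The female groups did not overlap, but the arrays nearest to each other were the slide 5 pair, at -0.25 and 0.22. The difference was -3.85 ± 0.45 on the log2 scale in males (SE, n = 3 arrays a group), a level 14.4-fold lower, and -2.19 ± 0.45 in females, a level 4.58-fold lower. Every SE here comes from a spread shared over the 4 groups. For Arhgef19 the SD was 0.99 in vehicle females and 0.39 in vehicle males. Within slide 5, 1 array against 1, it was -3.53 in males and -0.47 in females, and without slide 5 it was -3.06 in females. After dexamethasone the gene averaged -0.87 ± 0.53 in females and -0.39 ± 0.27 in males (SD, n = 3), near the 75th percentile of the array, so its lowered level could be read and its fold is a measured one.

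Meox2, the homeobox factor, was above background on 11 of 12 arrays. In males its level was -3.84, -3.85 and -3.42 after dexamethasone, the last not well above background, against -0.23, -0.10 and 0.52 after vehicle. All 3 male arrays after dexamethasone lay close together at the lower edge of what the arrays detect. In females it was -2.75, -3.50 and -1.04 after dexamethasone, against -0.79, -0.75 and -1.30 after vehicle. The dexamethasone array of slide 5 lay above the vehicle array of slide 5, so the female groups overlapped. The difference was -3.77 ± 0.51 in males and -1.48 ± 0.51 in females (SE, n = 3 arrays a group). This SE is shared over groups of unlike spread. The SD was 1.26 in dexamethasone females and 0.31 in vehicle females, against 0.25 and 0.40 in males. In males 2 of 3 dexamethasone arrays measured the gene. The third, not well above background, stood at -3.42, above the dimmest detectable level of that array at -3.56. The male level was 13.6-fold lower, which is an estimate and not a bound. In females it was 2.80-fold lower. With normexp background the male difference was -1.75. The female difference depended on single arrays: it was -2.18 without female dexamethasone 3, -0.95 without female dexamethasone 2, 0.26 within slide 5 and -2.35 without slide 5. In males it was -3.95 within slide 5.

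Chodl, the C-type lectin, was read above background by 1 of its 2 probes, and by that one only after vehicle. The brighter probe gave -6.72, -6.62 and -5.69 in males after dexamethasone, against -2.05, -2.83 and -1.98 after vehicle. In females it gave -5.58, -5.96 and -5.41 after dexamethasone, against -2.50, -3.29 and -2.02 after vehicle. In each sex the 3 dexamethasone arrays were not well above background and the 3 vehicle arrays were, and the groups lay far apart. Set against the dimmest detectable level of each array, Chodl was 3.75-fold lower after dexamethasone in males and 3.49-fold lower in females. These bounds are not strict minimums. The differences behind these bounds were -4.05 ± 0.38 in males and -3.05 ± 0.38 in females (SE, n = 3 arrays a group). With normexp background they were -0.86 and -0.67. The dimmer Chodl probe was above background on 0 of 12 arrays, with levels between -7.08 and -4.08, so the fall of this gene rests on a single probe.

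Pnoc, the nociceptin precursor, was also lost below background after dexamethasone. In males it gave -4.48, -4.95 and -5.41 after dexamethasone, none well above background, against -2.83, -2.37 and -3.96 after vehicle, of which the slide 5 array at -3.96 was not well above background either. In females it gave -6.52, -4.94 and -6.19 after dexamethasone, none well above background, against -1.61, -1.04 and -1.23 after vehicle. The groups did not overlap in either sex, and the female vehicle arrays were the brightest 3 of the 12. Set against the dimmest detectable level of each array, Pnoc was 8.64-fold lower after dexamethasone in females. In males the bound was 2.20-fold, with a vehicle mean of which 2 of 3 arrays measured the gene. With normexp background the male difference was -0.24, so the size of the male fall depends on the processing. The differences behind these bounds were -1.89 ± 0.48 in males and -4.59 ± 0.48 in females (SE, n = 3 arrays a group), and in females the value was -4.96 within slide 5 and -4.40 without it. Oprl1, the receptor of the nociceptin peptide, was above background on 0 of 12 arrays by both of its probes. Of the close relatives of the other genes, Meox1 was above background on 2 of 12 arrays.

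Of the genes ranked beside the members, only those near the top of the ranking are named. In males Cxcl1 (-4.10 ± 0.89 on the log2 scale), a neutrophil chemokine, stood just above Chodl. Cyp26b1 (-3.99 ± 0.49), a retinoic acid hydroxylase, stood between Chodl and Arhgef19, and Trim47 (-3.66 ± 0.46) came just after Meox2. In females Gucy1b2 (-5.16 ± 0.43), a guanylate cyclase subunit, stood just above Pnoc and Ccl2 (-4.25 ± 0.28), a monocyte chemokine, just below it. Cyp26b1, Trim47 and Ccl2 were not well above background on 3 of 3 dexamethasone arrays of the sex named, and Gucy1b2 on 1 of 3, so these places too are a description.

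The plot of the dexamethasone effect by slide setting shows where the slides mattered. Within each sex, Chodl and Pnoc kept a difference of similar size in every setting drawn, and so did Arhgef19 and Meox2 in males. The Chodl and Pnoc values rest on dexamethasone signals that were not well above background. Normexp background, which is not drawn, moved Chodl to -0.86 in males and -0.67 in females. It moved Pnoc to -0.24 in males and -1.31 in females, and Meox2 to -1.75 in males. In males 2 slides held both treatments, 1 array against 1: within slide 1 the differences were -3.92 for Arhgef19, -3.89 for Chodl, -3.74 for Meox2 and -2.11 for Pnoc, and within slide 5 those of Chodl and Pnoc were -3.71 and -1.44. In females Chodl gave -3.40 within slide 5. The female values of Arhgef19 and Meox2 moved to -0.92 and -0.05 with slide as a fixed block. Among female arrays only slide 5 held both treatments, and slide 4 held nothing but female dexamethasone arrays 1 and 2, which therefore cannot inform the effect in that fit.

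**Figure D2:**
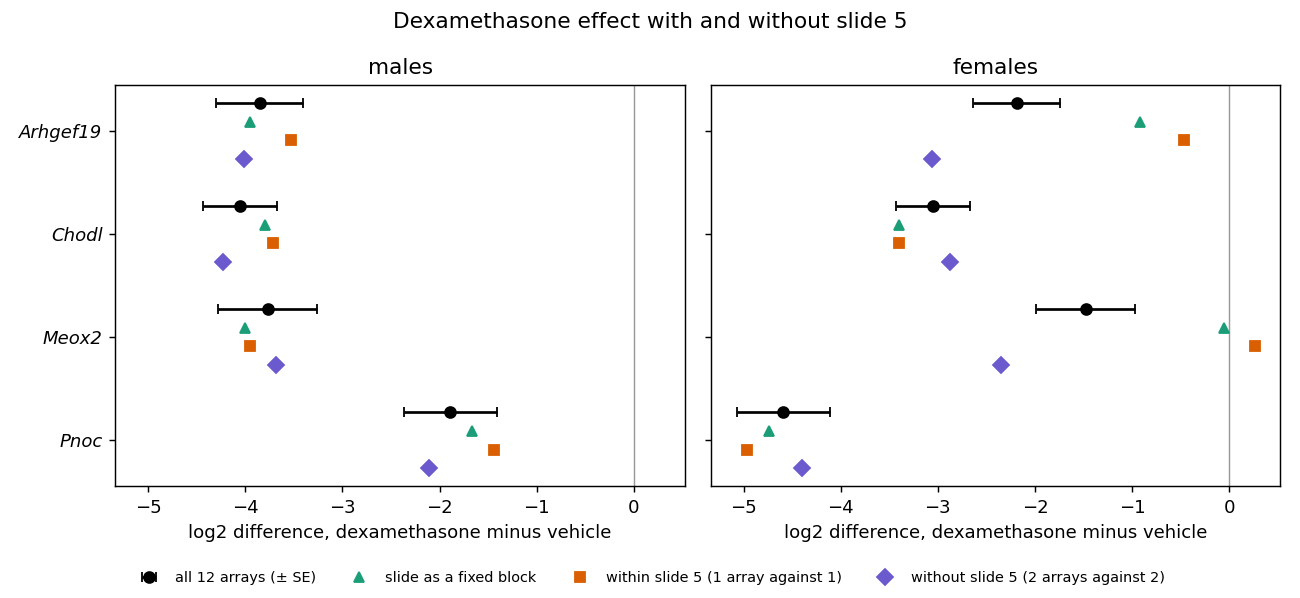
Log2 difference, dexamethasone minus vehicle, of each gene in males (left) and females (right) for all 12 arrays (circle, ± SE), with slide as a fixed block (triangle), within slide 5 (square) and without slide 5 (diamond). In females the Meox2 square lies at 0.26 and the Arhgef19 square at -0.47, while the Chodl and Pnoc symbols, which rest on dexamethasone signals below background, stay between -4.96 and -2.87.

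The effect of dexamethasone in females minus that in males was 1.66 ± 0.64 for Arhgef19 and 2.29 ± 0.72 for Meox2 on the log2 scale (SE). A positive value means a smaller fall in females. None is given for Chodl and Pnoc, whose dexamethasone signals were not well above background in either sex. The genes were picked on these falls, so no test is given. Over all genes, 0.0288% passed an adjusted p of 0.05 for this difference.

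The sexes were then compared at matched treatment, which the ranking did not use. The comparison still shares arrays with it: a high level in 1 vehicle group enters both the fall and the sex difference, so the adjusted p-values from limma are no independent evidence. After vehicle, Arhgef19 differed by -2.14 ± 0.45 on the log2 scale between females and males (95% interval -3.14 to -1.14, adjusted p = 0.0448), 4.40-fold lower in females, with all 3 female arrays below all 3 male arrays. In the same contrast 1.71% of all genes passed the threshold. The Arhgef19 difference did not pass it when the fit left out any single array other than female vehicle 2 or female dexamethasone 3, with adjusted p between 0.0302 and 0.142 over the 12 omissions. It was -3.02 within slide 5 and -1.70 without slide 5, where adjusted p was 0.0819.

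Pnoc ran the other way after vehicle, at 1.76 ± 0.48 (95% interval 0.70 to 2.82, adjusted p = 0.132), 3.39-fold higher in females, with no overlap between the sexes. Without overlap in either direction were 15.6% of all genes, and the Pnoc difference did not pass the threshold, but it did with slide as a random block (2.03, adjusted p = 0.0483). In vehicle males 2 of 3 arrays measured Pnoc. Meox2 differed by -1.01 ± 0.51 (95% interval -2.14 to 0.12, adjusted p = 0.573), also without overlap. Chodl differed by -0.32 ± 0.38 (95% interval -1.16 to 0.52, adjusted p = 0.886), and its sexes overlapped. Within slide 5 the vehicle difference was 2.73 for Pnoc, -1.82 for Meox2 and -0.04 for Chodl, and without slide 5 it was 1.28, -0.60 and -0.45.

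After dexamethasone the arrays of the sexes overlapped for Arhgef19 and for Meox2. Arhgef19 differed by -0.48 ± 0.45 between females and males (95% interval -1.48 to 0.52, adjusted p = 0.662). Meox2 differed by 1.27 ± 0.51 (95% interval 0.14 to 2.40, adjusted p = 0.256), where 2.31% of all genes passed the threshold. With slide as a fixed block it passed (2.56, adjusted p = 0.0462), while it was 0.58 without female dexamethasone 3. The Meox2 overlap came from female dexamethasone 2 at -3.50, which lay below the slide 5 male array at -3.42. Within slide 5 the difference after dexamethasone was 0.04 for Arhgef19 and 2.38 for Meox2, and without slide 5 it was -0.74 and 0.72. Chodl and Pnoc were not well above background on any array of either sex after dexamethasone, so no fold between the sexes is given for them.

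**Figure D3:**
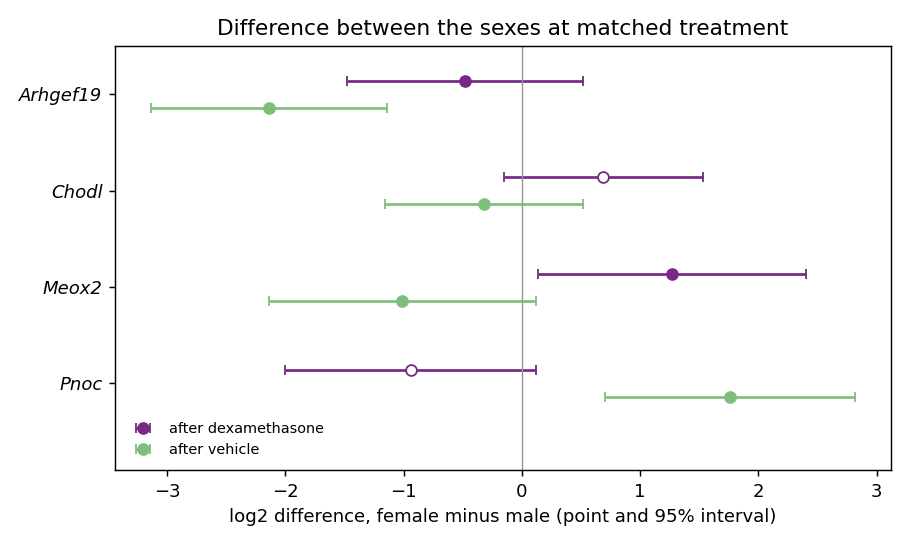
Log2 difference, female minus male, of each gene after dexamethasone and after vehicle, with the 95% interval from the limma fit. Open points have both sexes below background. The vehicle interval of Arhgef19 (-3.14 to -1.14) lies below 0 and that of Pnoc (0.70 to 2.82) above it.

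The order of the 4 group means differed between the genes. Arhgef19 averaged -0.39 in males after dexamethasone, 3.47 in males after vehicle, -0.87 in females after dexamethasone and 1.33 in females after vehicle, so its highest group was the male vehicle group. Meox2 averaged -3.70, 0.06, -2.43 and -0.95 in the same 4 groups, and was likewise highest in vehicle males. Pnoc averaged -4.95, -3.05, -5.88 and -1.29, and was highest in vehicle females. For Chodl the means were -6.34, -2.29, -5.65 and -2.60, and its vehicle groups of the 2 sexes lay within their SD of 0.64 in females and 0.47 in males.

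The patterns of the 4 genes over the 12 arrays share the fall after dexamethasone that all were picked for. Pearson's r was 0.90 between Chodl and Meox2 and 0.85 between Arhgef19 and Meox2, and lowest between Meox2 and Pnoc at 0.56. With the group means of treatment and sex removed, r was 0.27, 0.51 and -0.57 for these pairs over the same 12 arrays, and between Chodl and Pnoc it was -0.63, beside 0.76 before. These correlations are descriptions, since the arrays share groups and slides.

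Among the other 12117 genes with a symbol, the pattern closest to that of Arhgef19 over the 12 arrays was that of Echdc2 (r = 0.983), followed by Slc34a2 (0.971), a sodium phosphate cotransporter, Lrp2 (0.970), an endocytic receptor, Xylt2 (0.967) and Tcea3 (0.967). Lrp2 differed by -2.51 in males and -1.23 in females between dexamethasone and vehicle on the log2 scale. Slc34a2 was not well above background on any dexamethasone array and on 1 female vehicle array, so its difference is not given. Echdc2 had the same pattern on a much smaller scale, at -0.66 in males and -0.36 in females.

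For Chodl the closest gene was Nr3c1 (r = 0.982), which encodes the glucocorticoid receptor itself, at -1.30 in males and -1.14 in females. Alkbh2 (0.981), a DNA repair dioxygenase, Pold3 (0.981), a DNA polymerase subunit, Strada (0.979) and Sox5 (0.978), a transcription factor, followed. Chodl had 358 genes with r above 0.9, against 80 for Arhgef19, 61 for Meox2 and 97 for Pnoc. After dexamethasone no Chodl value was well above background, and with the group means removed r with Nr3c1 was 0.70.

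For Meox2 the closest genes were Tmem220 (r = 0.969), Iftap (0.968), Commd7 (0.959), Stx4 (0.949), a membrane fusion syntaxin, and Gpr37 (0.948), an orphan receptor. Tmem220 differed by -1.11 in males and -0.71 in females between dexamethasone and vehicle. Gpr37 was not well above background on 3 of 3 male and 2 of 3 female dexamethasone arrays. With the group means removed, Tmem220 still had r = 0.93 with Meox2.

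For Pnoc the closest genes were Slc7a5 (r = 0.971), a large neutral amino acid transporter, Gdf15 (0.952), a stress-induced hormone, Tp53i11 (0.949), Rab38 (0.949) and Ptpn3 (0.948). Gdf15 differed by -1.48 in males and -3.27 in females between dexamethasone and vehicle. Slc7a5 was not well above background on 2 of 3 dexamethasone arrays in each sex. The sex with the larger difference is fixed for all these genes by the choice of those most like each member.

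**Figure D4:**
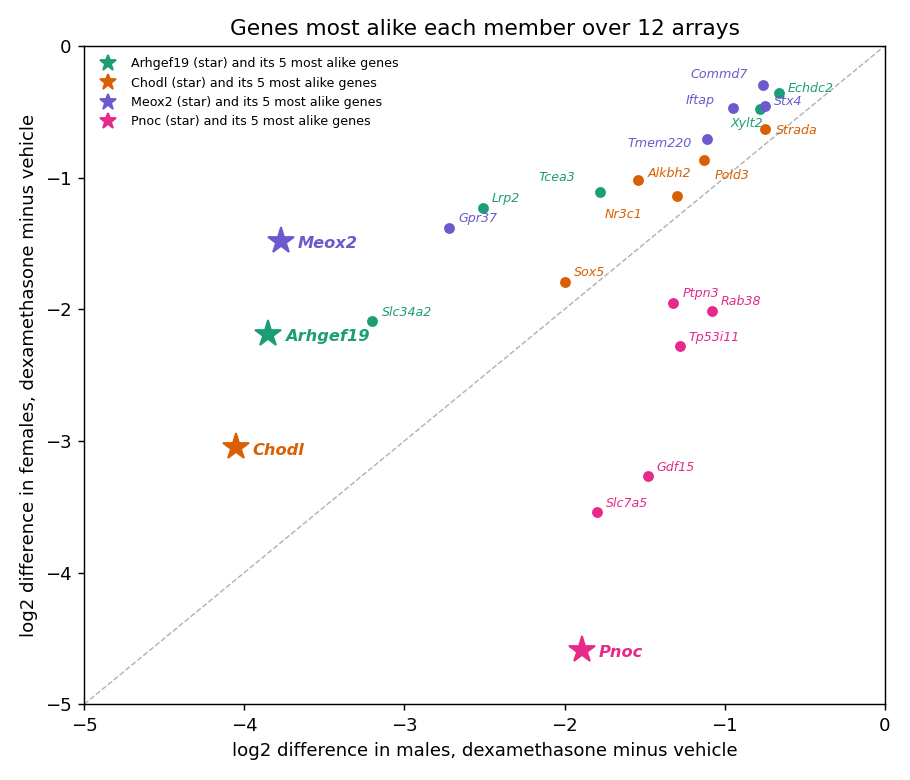
Log2 difference, dexamethasone minus vehicle, in males (x axis) and in females (y axis) for the 4 genes (stars) and the 5 genes whose pattern over the 12 arrays was most like each (points of the same colour). The dashed line marks equal values in the sexes. Positions of Chodl, Pnoc, Slc34a2, Slc7a5 and Gpr37 rest on dexamethasone signals that were mostly or all below background. The Pnoc group lies below the line, with Gdf15 at -3.27 in females, and the other 3 groups lie above it, as the choice by likeness fixes.

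The genes that work with each member were taken from lists, and their calls are those of limma at an adjusted p under 0.05 over all genes, which 10.8% of genes passed as lower and 9.34% as higher in males, and 12.6% and 11.7% in females. The medians over all genes were 0.01 in males and -0.08 in females.

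Of the planar cell polarity Wnt genes, 20 of 29 were measured. In males 1 rose and 3 fell, in females 0 rose and 2 fell, and the medians were 0.31 and -0.12. Prickle1, a core polarity protein, fell in males (-1.58 ± 0.20, adjusted p = 0.000339) and in females (-1.97 ± 0.20, adjusted p = 9.4e-05). Mapk9, a JNK kinase of the pathway, fell in males (-0.79 ± 0.17, adjusted p = 0.00862) and in females (-1.02 ± 0.17, adjusted p = 0.0021), and the male call was lost in a fit of those 2 groups only (adjusted p = 0.0586). Of the transmembrane C-type lectins, the class of Chodl, 18 of 35 were measured. By limma 0 passed in males and 2 fell in females, Colec12 and Cd248, and the medians were -0.09 and -0.29. Cd248, or endosialin, fell in females (-1.20 ± 0.26, adjusted p = 0.00756), a call that was lost with normexp background (-0.47, adjusted p = 0.104). The Colec12 call (-1.25 ± 0.34, adjusted p = 0.0224) was lost without female vehicle 1, female vehicle 2 or female dexamethasone 3, with adjusted p of 0.0789, 0.0662 and 0.0524, and in a fit of the 2 groups only (adjusted p = 0.0624).

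Of the genes tied to Meox2, its family, partners and reported targets, 18 of 21 were measured. In each sex 2 rose and 0 fell, and the medians were 0.37 in males and 0.29 in females. Cdkn1a, the cell cycle inhibitor p21 that Meox2 can activate, rose while Meox2 was lower, by 5.02 ± 0.24 in males (adjusted p = 2.91e-06) and 5.19 ± 0.24 in females (adjusted p = 3.74e-06). Gas1, a growth arrest protein, rose by 2.99 ± 0.28 in males (adjusted p = 7.43e-05). In females Gas1 rose by 1.12 ± 0.28 (adjusted p = 0.0173), a call that was lost without female vehicle 1, female vehicle 2 or female dexamethasone 3, with adjusted p of 0.0521, 0.0559 and 0.0555, and with slide as a fixed block (0.96, adjusted p = 0.121). Of the opioid peptides, their receptors and the enzymes that cut prohormones, 17 of 21 were measured: 2 rose in males, 2 rose and 1 fell in females, and the medians were -0.01 and -0.20. Cpz, a carboxypeptidase, rose in males (1.30 ± 0.18, adjusted p = 0.000738) and in females (0.99 ± 0.18, adjusted p = 0.00347). Cpe, the carboxypeptidase that trims neuropeptides, fell in females (-1.09 ± 0.26, adjusted p = 0.0131), a call that was lost without female vehicle 1 (0.0512) or female dexamethasone 1 (adjusted p = 0.0538) and with slide as a fixed block (-0.71, adjusted p = 0.331).

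Markers of liver cell types were read beside these results, because in whole liver fewer cells of a type and less RNA per cell cannot be told apart. All 10 hepatocyte markers were measured, and their summed intensity, in percent of the array 75th percentile, was 569000 to 731000 in dexamethasone males, 395000 to 734000 in vehicle males, 703000 to 778000 in dexamethasone females and 559000 to 724000 in vehicle females. The 9 bile duct markers summed to 7570 to 13000 in dexamethasone males, against 24300 to 34800 in vehicle males, and to 14100 to 17100 in dexamethasone females, against 38200 to 68900 in vehicle females. In each sex 3 of the 9 fell, 0 rose and 6 were not called. Their median log2 difference was -0.68 in males and -0.67 in females. A sum of intensities weighs the brightest markers most. Of the 10 measured T and NK lymphocyte markers, 6 fell in males, while 8 fell and 1 rose in females.

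The sum of the T and NK lymphocyte markers was 308 to 380 in dexamethasone males, against 491 to 645 in vehicle males, and 318 to 428 in dexamethasone females, against 545 to 817 in vehicle females. Of the 14 listed T and NK lymphocyte markers, Cd3e, Cd4, Cd2 and Lck were not among the measured genes. Of 12 endothelial markers 1 rose and 1 fell in males and 1 rose and 2 fell in females, and of 13 stellate cell and fibroblast markers 4 fell in each sex and 1 rose in males. The endothelial sum was 3470 to 4960 in dexamethasone males, against 4390 to 6680 in vehicle males, and 1830 to 4250 in dexamethasone females, against 5750 to 8950 in vehicle females. The stellate cell and fibroblast sum was 6000 to 7060 in dexamethasone males, against 6140 to 8040 in vehicle males, and 3760 to 6490 in dexamethasone females, against 6810 to 8290 in vehicle females.

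Of 12 Kupffer cell and macrophage markers 2 fell and 0 rose in each sex, and their sum was 5700 to 10700 in dexamethasone males, against 8840 to 12500 in vehicle males, and 5320 to 11500 in dexamethasone females, against 9330 to 16000 in vehicle females. Of 5 B and plasma cell markers 2 fell in males and 3 in females, and their sum was 27.1 to 73.7 in dexamethasone males, against 88.3 to 133 in vehicle males, and 48.2 to 101 in dexamethasone females, against 112 to 136 in vehicle females. Of 5 neutrophil markers 3 fell in each sex, and their sum was 78.9 to 159 in dexamethasone males, against 130 to 171 in vehicle males, and 74.3 to 116 in dexamethasone females, against 170 to 534 in vehicle females. In each sex the bile duct, T and NK lymphocyte and B and plasma cell sums did not overlap between the treatments. None of 6 nerve and Schwann cell markers passed in either sex. The part of these marker shifts in the falls of the 4 genes was not tested.

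RefSeq gives a promoter window of 300 bases, 250 before and 50 after the start, for 3 of the 4 genes on build GRCr8, all on the + strand: Arhgef19 at chr5:158818782-158819081, Chodl at chr11:31140865-31141164 and Meox2 at chr6:59583775-59584074. Motifs were searched on either strand. AGAACA, a half-site of the glucocorticoid response element, was in 20.7% of 33469 rat promoters, and TGANTCA, the AP-1 motif, in 7.3%. CTCC and GGAG 0 to 2 bases apart, an inverted repeat described for repressive receptor binding, were in 4.0%. These motifs were at no place in the 3 windows. The full glucocorticoid response element was not searched. TATAAA, in 14.2% of promoters, was on the reverse strand of the Meox2 window at 2 places. These letters describe the windows only.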

How the data were processed

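The 12 single-colour rat arrays, each with 500 ng of Cy3-labelled pooled RNA, were deposited as scanner output from Agilent Feature Extraction 9.1, per the labels and the file headers. The deposited processed signal is a spot intensity, background-subtracted and detrended by that software, per the file headers. The authors' deposited value table holds log10 intensities, with array medians between 1.491 and 1.516 and a scaling that is not given in the sources used here. It served as an alternative (r between 0.9964 and 0.9999 with the scanner values).

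Here log2 signals were centred on the 75th percentile of each array. The 211 spots flagged as outliers were set to missing, and no spot was saturated. A probe was used if it was well above background on 3 or more arrays and each group had 2 or more usable values. Where a gene had several such probes, the brightest was taken. Of 41012 probes 20371 were matched to a RefSeq gene. limma 3.58.1 under R 4.3.3 fitted 1 mean per group over all 12 arrays (8 residual and 2.39 prior degrees of freedom), with Benjamini-Hochberg adjustment over 24298 genes and calls at 0.05. The steps were tested on simulated data. A group below background on all its arrays got a bound: the other group's mean against the mean of, per array, the dimmest detectable level or the probe's own if higher. Such bounds use normalized log2 means. They are not strict minimums, since some spots not well above background lay above the dimmest detectable level. No 2 arrays were identical (r within groups 0.9555 to 0.9909).

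The members, the lists and the naming rule were chosen with earlier results of these data known. Named are the 4 genes, 5 genes most like each, their neighbours near the top of the ranking, up to 4 called genes per list and treatment contrast, and Oprl1, Meox1 and Layn, for which no probe was matched. Of the list calls, those on Fzd2, Ror1 and Pcsk5 are counted but not described. One gene list and one marker are not reported here. The number of arrays limits precision.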

Additional observations from a re-analysis of the deposited data

How the results depend on the processing

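Alternatives were normexp background, quantile and median scaling, the authors' value table, no filter on dim probes, a filter asking for all arrays of a group above background, every probe fitted by itself, a fit of only the compared groups, slide as fixed or random block, values within slides, the replicate number as a block, each array left out in turn and, chosen after seeing the data, the 4 arrays of slide 5 left out together. Normexp started from the mean spot signal and the median background, with an offset of 50. It gave smaller differences after dexamethasone in males (Chodl -0.86, Arhgef19 -3.40, Meox2 -1.75, Pnoc -0.24) and in females (Chodl -0.67, Pnoc -1.31). The cause of these and of the other moves was not tested. In females Arhgef19 was -0.92 with the fixed slide block, -0.47 within slide 5 and -3.06 without slide 5, and Meox2 was -0.05 with the block and reversed to 0.26 within slide 5.

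Between the sexes after vehicle, the Arhgef19 difference missed the threshold with no filter (-2.14, adjusted p = 0.0752), with the 2 groups only (0.256), with the fixed slide block (-2.56, adjusted p = 0.0648) and without slide 5 (-1.70), and was -3.02 within slide 5. The Arhgef19 difference passed the threshold in 9 of 25 settings. Among these were normexp background (-1.95, adjusted p = 0.0073) and the random slide block (-2.45, adjusted p = 0.0113). Pnoc passed the threshold with the random slide block (2.03, adjusted p = 0.0483) and was 2.73 within slide 5, where Meox2 was -1.82. After dexamethasone Arhgef19 reversed to 0.47 with the fixed slide block and 0.04 within slide 5, and Meox2 was 2.56 with the block (adjusted p = 0.0462) and 2.38 within slide 5.

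Genes called were 4895 in males, 5919 in females, 415 between sexes after vehicle and 561 after dexamethasone. The random slide block gave 7745 in males, 654 after vehicle and 919 after dexamethasone. The fixed slide block gave 3086 in females and 252 after vehicle. The 2 groups alone gave 165 after vehicle. Without slide 5 there were 263 after vehicle and 870 after dexamethasone. In the list around Meox2, the 1 sex call after vehicle became 0 by limma with no filter.

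With 1 array left out, counts ran between 3679 and 5191 in males, 3744 (without female dexamethasone 2) and 6069 in females, 261 (without female vehicle 1) and 403 after vehicle, and 296 (without female dexamethasone 2) and 627 after dexamethasone, where male dexamethasone 1 or 2 or female dexamethasone 1 left out gave 357, 320 and 298. The vehicle sex difference of Arhgef19 ran between -2.53 and -1.58, and that of Chodl between -0.61 and 0.03, reversed without female vehicle 2.

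Between the treatments, replicate numbers 1 and 2 showed no pairing of the samples, while number 3 marks the shared slide 5 in every group. Deviations of arrays numbered 1, 2 and 3 correlated at 0.01, 0.00 and 0.52 in males and at 0.07, 0.11 and 0.18 in females. With the replicate number as a block 6335 genes were called in males, 7731 in females, 548 between sexes after vehicle and 849 after dexamethasone, and the vehicle sex difference of Arhgef19 (-2.14) had an adjusted p of 0.0757.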
